A study of Mus musculus with 3 samples.

Results

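The genes described here encode the NADPH oxidases of the intestinal epithelium, their maturation factors and subunits, and the inducible nitric oxide synthase. They were Duox1, Duox2, Duoxa1, Duoxa2, Nox1, Nox4, Noxo1, Noxa1, Cyba and Nos2, picked by gene symbol, and all 10 were found among the 24346 genes listed for each library. Their RNA had been sequenced in mouse intestinal epithelium from 3 regions, the large intestine and the lower and upper small intestine, with 1 library from each. Per the labels' protocols, the epithelium was shaken off opened intestines in a solution of 5 mM EDTA (20 min, 37 °C) and pelleted, and no sorting is described. No genotype, age, treatment or number of animals is given in the labels. The labels of the upper small intestinal library alone carry a strain entry, which names the colorectal cancer mouse model MC38. If the entry holds, comparisons with that library are ones of this mouse model and of region together, which cannot be told apart. With 1 library per region no difference below has a replicate check, and in bulk samples fewer cells of a type and less RNA per cell cannot be told apart.

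Levels are in FPKM (sequenced fragments divided by transcript length and library size), so levels of different genes are per length. The low values were spaced so that a 2 kb transcript at 1 FPKM would have about 16.8 reads in large intestine, 21.7 in lower small intestine and 14.7 in upper small intestine. Brackets after ratios are 95% Clopper-Pearson intervals from the reads so implied. They cover counting error alone, since the reads carry no molecular identifiers and a molecule can be read more than once. Where 3 values stand together without names, they are those of large, then lower small, then upper small intestine. Differences between libraries are of log2(FPKM + 1), which understates those of low genes. Genes at 1 FPKM or more in either library count as measured, and those whose difference reached 1 are called higher or lower. A difference of 1 is a 2-fold ratio of FPKM + 1, so a ratio of FPKM slightly above 2 can fall short of it. This is a rule of size with no test behind it. Epithelial markers were high in all libraries, with the 8 genes of the list between 82.5 and 2845 FPKM in large intestine, 100.2 and 2676 FPKM in lower and 81.4 and 1682 FPKM in upper small intestine.

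NADPH oxidases are membrane enzymes that pass electrons from NADPH to oxygen. Nox1 releases superoxide and needs a membrane partner, Cyba, an organizer, Noxo1, and an activator, Noxa1, together with the GTPase Rac1. The dual oxidases Duox1 and Duox2 release hydrogen peroxide, and each needs a maturation factor, Duoxa1 or Duoxa2, to leave the endoplasmic reticulum. Nos2 makes nitric oxide from arginine and is controlled mainly through its transcription, by NF-kB, STAT and interferon signals. In the gut these enzymes are known for epithelial defence, Duox2 and Duoxa2 as genes that microbes induce in the mouse ileum and Nox1 as the oxidase of the colon.

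The dual oxidase genes form 1 cluster on mouse chromosome 2 (mm10). Duox2 lies at 122279247 to 122298449 on the minus strand, Duoxa2 at 122298900 to 122302885 on the plus strand, Duoxa1 at 122302191 to 122313730 on the minus strand and Duox1 at 122315672 to 122347972 on the plus strand. Each oxidase thus stands head to head with a maturation factor, with the annotated starts of Duox2 and Duoxa2 451 bases apart and those of Duoxa1 and Duox1 1942 bases apart. The windows before Duoxa2, which was highest in lower small intestine, and before Nox1 and Noxa1, which were highest in large intestine, are shown because these genes stand for the contrasting patterns below. Each is the 250 bases before the RefSeq start (GRCm38.p6), 5′ to 3′ on the strand of the gene, with matches to searched motifs in capitals.
Duoxa2, chr2:122298650-122298899, plus strand: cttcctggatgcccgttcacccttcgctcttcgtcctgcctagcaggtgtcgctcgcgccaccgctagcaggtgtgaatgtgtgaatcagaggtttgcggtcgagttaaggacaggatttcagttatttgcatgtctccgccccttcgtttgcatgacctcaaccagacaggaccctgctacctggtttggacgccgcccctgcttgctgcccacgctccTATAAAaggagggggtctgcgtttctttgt
Nox1, chrX:134111855-134112104, minus strand: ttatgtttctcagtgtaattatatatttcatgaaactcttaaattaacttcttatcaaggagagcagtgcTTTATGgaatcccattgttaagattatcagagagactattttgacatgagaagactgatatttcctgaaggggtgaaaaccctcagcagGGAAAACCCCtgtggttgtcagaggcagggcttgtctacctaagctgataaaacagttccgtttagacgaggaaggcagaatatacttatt
Noxa1, chr2:25095206-25095455, minus strand: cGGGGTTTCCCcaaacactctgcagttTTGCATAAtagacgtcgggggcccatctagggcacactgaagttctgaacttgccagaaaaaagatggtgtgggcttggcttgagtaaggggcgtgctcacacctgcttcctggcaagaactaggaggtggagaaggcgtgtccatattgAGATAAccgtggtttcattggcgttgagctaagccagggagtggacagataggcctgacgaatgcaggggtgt
The motifs were chosen after expression values were known and were searched on both strands. They were the TATA box with the letters TATAAA, the STAT site with TTCNNNGAA, the CDX site with TTTATG, the GATA factor site with AGATAA, the C/EBP site with TTGCNNAA and the HNF4 site with CAAAGNNCA, and the NF-kB and IRF consensus motifs. Duoxa2 had a TATA box at 30 to 25 bases before its start, a motif held by 12.4% of 32851 windows of the same length. Nox1 had a CDX match, TTTATG, at 180 to 175 bases before its start, held by 10.8% of windows, and an NF-kB match at 91 to 82 bases, held by 3.90%. Noxa1 had matches to NF-kB, C/EBP and GATA, the last at 73 to 68 bases before the start given by RefSeq, with shares of 9.56% for C/EBP and 9.99% for GATA. None of the 9 members with a window matched the IRF or HNF4 motif, which 2.98% and 5.49% of windows hold. Of the 250 bases of the Duox2 window, 222 lie in an annotated exon of Duox2 itself. The absence of matches there thus says little about the sequence before the Duox2 start used above. Only Nox4 matched STAT, held by 7.02%. A match describes letters and shows no binding, and matches of different motifs did not overlap in the windows printed. Nos2 has no entry.

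**Figure D1:**
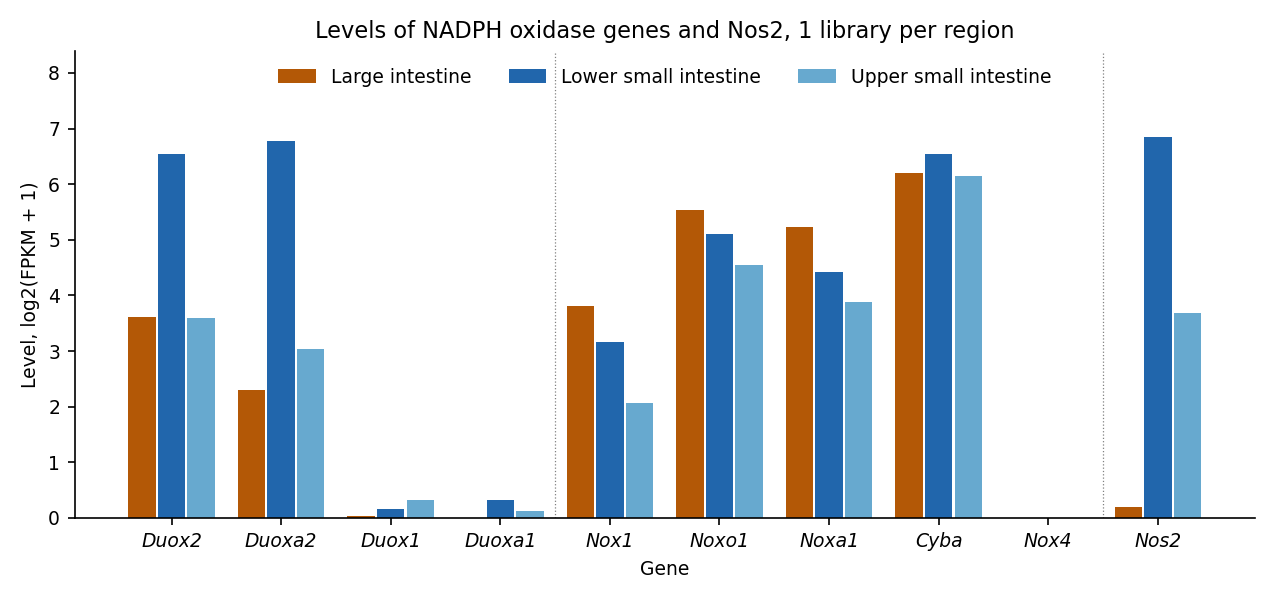
Levels as log2(FPKM + 1) on the y axis for each gene on the x axis, with 1 bar per library and no error bar because there is 1 library per region. Duox2, Duoxa2 and Nos2 stand highest in lower small intestine, Nox1, Noxo1 and Noxa1 are highest in large intestine, and Nox4 is listed at 0 in all 3.

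The members fell into contrasting patterns. Of the 10, 7 were measured in each comparison, since Duox1, Duoxa1 and Nox4 stayed under 1 FPKM in every library. In large against lower small intestine 0 of 7 were called higher and 3 lower (Duox2, Duoxa2 and Nos2), where 9.75% of 12376 measured genes were higher and 10.5% lower. In large against upper small intestine 2 of 7 were higher (Nox1 and Noxa1) and 1 lower (Nos2), where 11.2% of 12350 genes were higher and 11.7% lower. In lower against upper small intestine 4 of 7 were higher (Duox2, Duoxa2, Nox1 and Nos2) and 0 lower, where 2.92% of 11941 genes were higher and 3.92% lower. The comparisons share libraries, so they are not independent. The medians of the measured members were -0.35, 0.06 and 1.09, beside medians of -4.5e-05, 0.00057 and 0.03 over all measured genes. With each library rescaled to the same sum of FPKM, 14.2% of measured genes were higher and 8.01% lower in large against lower, and 17.8% higher and 8.01% lower in large against upper. The medians of all measured genes then moved to 0.28, 0.37 and 0.12.

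Duox2 and Duoxa2 were both highest in lower small intestine. Duox2, the dual oxidase of the gut, was at 11.3 FPKM in large intestine, 92.1 FPKM in lower and 11.03 FPKM in upper small intestine. The lower small intestine stood apart, and the large and upper libraries did not differ beyond counting error, at a ratio of 1.02 (0.903 to 1.16). This depends on the scaling, since the large to upper log2 difference of 0.03 became 0.41 after rescaling to the same sum of FPKM. The ratio of large to lower small intestine was 0.123 (0.112 to 0.134), a log2 difference of -2.92, and that of lower to upper was 8.35 (7.59 to 9.20), a log2 difference of 2.95. Duoxa2, its maturation factor, was at 3.94 FPKM in large intestine, 109 FPKM in lower and 7.16 FPKM in upper small intestine. Its order was lower, upper, large, and each neighbouring pair differed beyond counting error. The large to lower ratio was 0.0361 (0.0271 to 0.0477), the large to upper ratio 0.55 (0.382 to 0.785) and the lower to upper ratio 15.2 (12.2 to 19.1). Among 11941 measured genes, 37 had a greater log2 difference of lower over upper small intestine than Duoxa2 and 48 a greater one than Duox2. Duoxa2 varied more than Duox2, so that its level relative to Duox2 was 0.349 in large intestine, 1.19 in lower and 0.649 in upper small intestine. These ratios are within a library and do not depend on the scaling between libraries.

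The remaining pair of the cluster was near 0. Duox1, the dual oxidase better known from airway, was at 0.022 FPKM in large intestine, 0.116 FPKM in lower and 0.248 FPKM in upper small intestine. That is about 0.974, 6.64 and 9.57 implied reads, and this depth did not resolve the lower from the upper library, with a ratio of 0.468 (0.152 to 1.37). Duoxa1 was listed at 0 in large intestine and was at 0.252 FPKM in lower and 0.094 FPKM in upper small intestine. The exons of Duoxa1 and Duoxa2 share 682 bases on opposite strands, 42.8% of the exon bases of Duoxa2. The library kit was stranded, but the strand setting of counting is not given in the sources used here, so reads in this stretch could not be assigned. Where Duoxa2 stood at 109 FPKM, Duoxa1 stood at 0.252 FPKM.

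**Figure D2:**
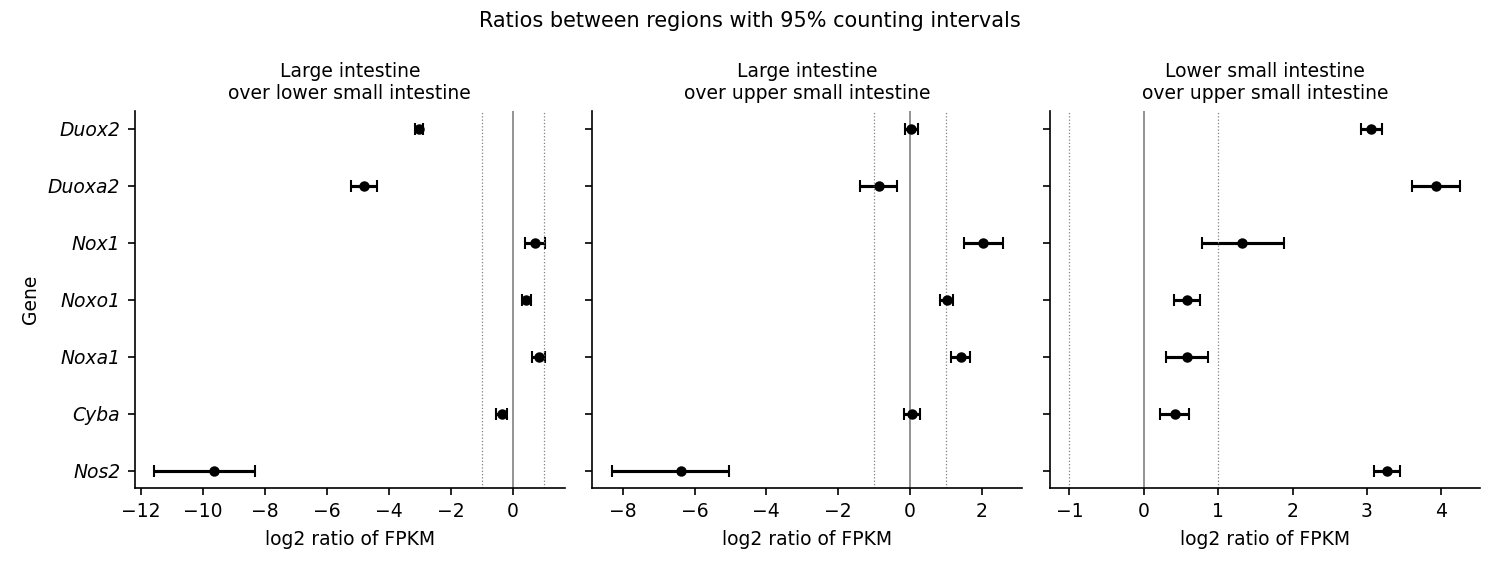
log2 ratio of FPKM on the x axis for the 7 measured members on the y axis, 1 panel per comparison. Points are ratios, bars are 95% counting intervals, and dotted lines mark 2-fold. Duox2, Duoxa2 and Nos2 lie far below 0 in large over lower small intestine and far above 0 in lower over upper small intestine, while Cyba stays inside the 2-fold lines in all 3 panels.

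Of the Nox1 complex, the oxidase, the organizer and the activator were highest in large intestine. From large to lower small intestine they thus ran opposite to Duox2 and Duoxa2, but none of them passed the rule of size. Differences at least as large were held by 32.9% of measured genes for Nox1, 47.9% for Noxo1 and 26.5% for Noxa1. Like Duox2 and Duoxa2 they were higher in lower than in upper small intestine, where Nox1 alone of them passed the rule. Nox1, the catalytic subunit (chromosome X, 134086421 to 134221956, minus strand, with the RefSeq start inside this span), was at 13.1 FPKM in large intestine, 7.96 FPKM in lower and 3.20 FPKM in upper small intestine. All 3 libraries differed beyond counting error. The large to lower ratio was 1.65 (1.31 to 2.07) and did not pass the rule of size, whereas the large to upper ratio of 4.10 (2.86 to 6.02) and the lower to upper ratio of 2.49 (1.72 to 3.69) did. With a pseudocount of 5 the lower to upper difference of Nox1 was 0.66 rather than 1.09 and did not pass. Noxa1, the activator (chromosome 2, 25085667 to 25095149, minus strand), was at 36.4 FPKM in large intestine, 20.4 FPKM in lower and 13.7 FPKM in upper small intestine. Its order was also large, lower, upper, and each pair differed beyond counting error, with ratios of 1.78 (1.55 to 2.05) for large to lower, 2.67 (2.22 to 3.20) for large to upper and 1.496 (1.23 to 1.81) for lower to upper.

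Noxo1, the organizer that docks the complex at the membrane (chromosome 17, 24696234 to 24700529, plus strand), was at 45.7 FPKM in large intestine, 33.6 FPKM in lower and 22.4 FPKM in upper small intestine. Its large to upper ratio was 2.03 (1.80 to 2.31), and the log2 difference of 0.99 lay just short of the rule, at 1.02 with a pseudocount of 0.1 and 1.39 after rescaling to the same sum. Its large to lower ratio was 1.36 (1.23 to 1.499). Cyba, the membrane partner that stabilises Nox1 and the phagocyte oxidase (chromosome 8, 122424776 to 122432930, minus strand), was the most even of the 7 measured members. It was at 72.2 FPKM in large intestine, 92.6 FPKM in lower and 69.5 FPKM in upper small intestine, with a large to upper ratio of 1.04 (0.893 to 1.21). The lower small intestine was above both others, with a large to lower ratio of 0.78 (0.686 to 0.886) and a lower to upper ratio of 1.33 (1.16 to 1.53).

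The accessory genes were above Nox1 in every library. Noxo1 relative to Nox1 was 3.48 in large intestine, 4.22 in lower and 7.02 in upper small intestine, and Noxa1 relative to Nox1 was 2.78, 2.57 and 4.27 in the same order. Cyba relative to Nox1 was 5.51, 11.6 and 21.7. Noxa1 and Noxo1 differed less in their ratio to each other, with Noxa1 over Noxo1 at 0.798 in large intestine and 0.609 and 0.608 in lower and upper small intestine. Several of these genes overlap neighbours on the opposite strand. Exons of Noxo1 share 2122 bases with Tbl3, 70.4% of the exon bases of Noxo1, and Tbl3 was at 9.64, 12.9 and 15.01 FPKM in large, lower and upper, the reverse order of Noxo1. Exons of Nox1 share 399 bases with Cstf2, which was even at 12.3, 12.7 and 12.7 FPKM, and the last 50 bases of Noxa1 are shared with the end of Entpd8 at 61.6, 52.03 and 65.1 FPKM. How far shared reads enter these values was not tested. Nox4, an oxidase of kidney and connective tissue (chromosome 7, 87246096 to 87398710, plus strand), was listed at 0 in all 3 libraries.

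**Figure D3:**
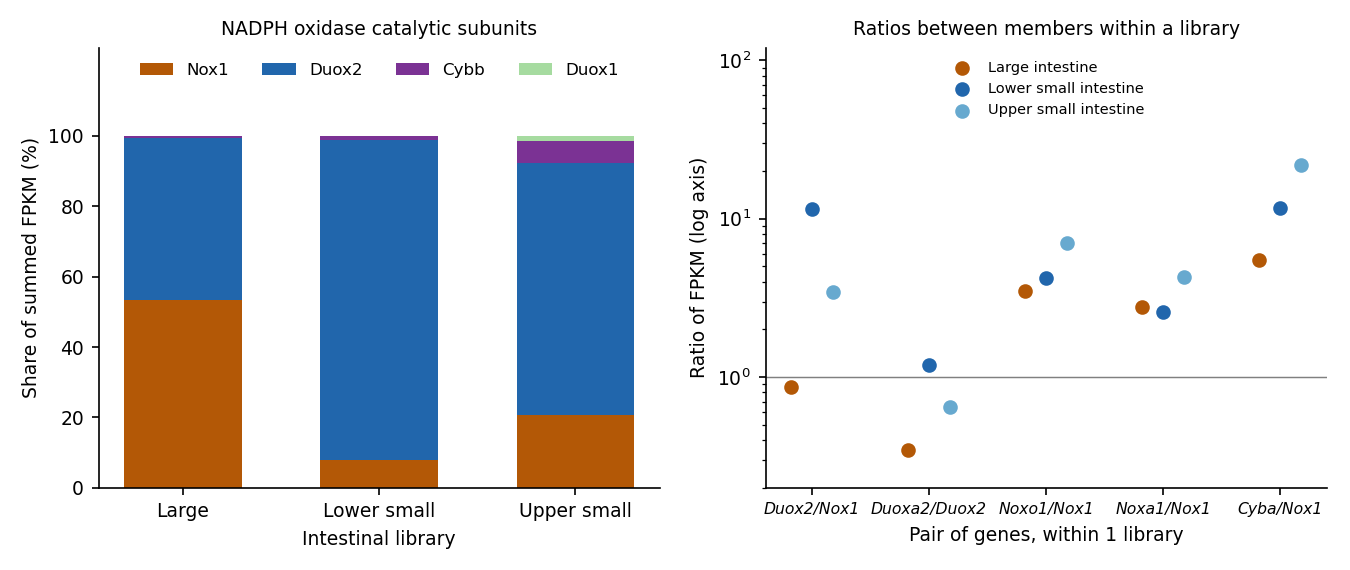
Left, share of the summed FPKM of catalytic subunits (%, y axis) in each library. Right, ratio of FPKM between members within a library (log y axis) for each pair on the x axis. Duox2 holds 46.0% of the sum in large intestine, 90.9% in lower and 71.6% in upper small intestine, and Duox2 over Nox1 is lowest in large intestine.

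Duox2 was the most abundant oxidase transcript in both small intestinal libraries, whereas in large intestine Duox2 and Nox1 did not differ beyond counting error. Of the summed FPKM of Nox1, Duox1, Duox2, Nox4, Nox3 and the phagocyte oxidase gene Cybb, Nox1 held 53.4% in large intestine, 7.86% in lower and 20.7% in upper small intestine. Duox2 held 46.0%, 90.9% and 71.6%. Duox2 was 0.862 times (0.726 to 1.03) the level of Nox1 in large intestine, 11.6 times (9.75 to 13.8) in lower and 3.45 times (2.47 to 4.96) in upper small intestine. These ratios also rest on the transcript lengths used. The summed level was 24.5, 101.3 and 15.4 FPKM, and was highest in lower small intestine, mainly as Duox2.

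Nos2, the inducible nitric oxide synthase (chromosome 11, 78920787 to 78960254, plus strand), had the widest range of the members. It was at 0.144 FPKM in large intestine, 114 FPKM in lower and 11.9 FPKM in upper small intestine. The lower small intestine was highest and the large intestine close to 0, at about 4.15 implied reads against 4258 and 298. The large to lower ratio was 0.00126 (0.000331 to 0.00311) and the log2 difference -6.65, and among 12376 measured genes 50 had a more negative one. The large to upper ratio was 0.0121 (0.00317 to 0.0303), a log2 difference of -3.49, and the lower to upper ratio 9.62 (8.56 to 10.9), a log2 difference of 3.16. Nos2 over Duox2 was 1.24 in lower and 1.08 in upper small intestine, but 0.0128 in large intestine. No counting interval was computed for these ratios, which also rest on the transcript lengths used. The other nitric oxide synthases, Nos1 and Nos3, did not exceed 0.053 FPKM in any library.

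**Figure D4:**
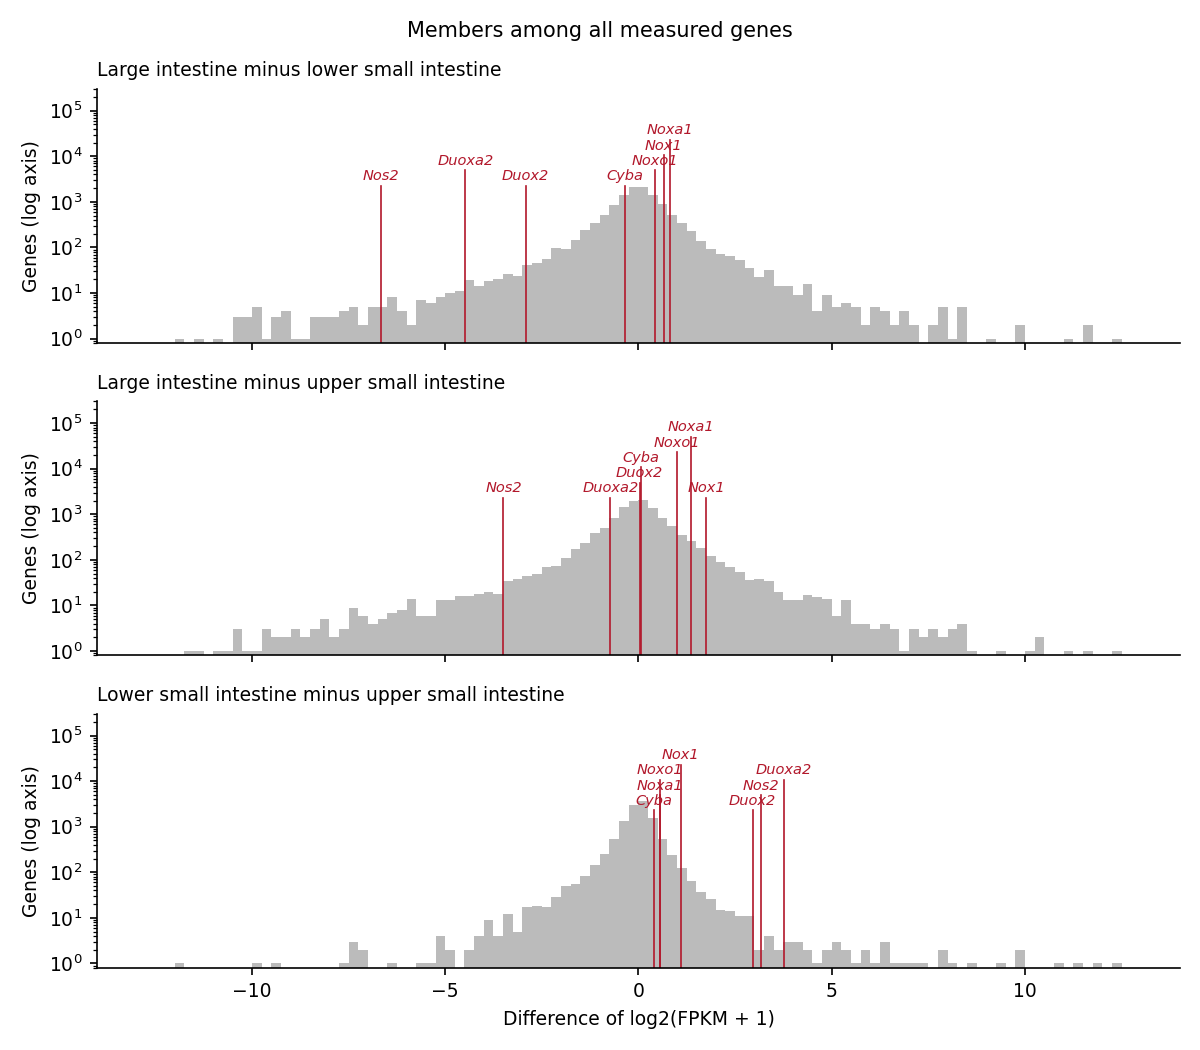
Histograms of the difference of log2(FPKM + 1) (x axis) over all measured genes (number of genes, log y axis), 1 panel per comparison, with the 7 measured members as red lines. Nos2 lies at -6.65 in large minus lower, and Duoxa2, Nos2 and Duox2 lie in the sparse right tail of lower minus upper.

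Genes listed around the supply of Nos2 with arginine and its cofactor tetrahydrobiopterin were mostly within the rule of size, as were most genes. The list holds genes of supply, but also genes that use arginine, such as Arg2, or export it, such as Slc7a7. Its counts are thus not counts of supply. Those past it in the comparisons of large intestine were mostly lower there. Of 12 of 16 measured in large against lower small intestine, 0 were higher and 4 lower, with a median of -0.34. The lower ones were Arg2, Slc7a7, Gchfr and Slc7a1, the last named outside the rule. In large against upper 1 of 14 was higher and 5 lower, with a median of -0.39, and in lower against upper 1 of 14 was higher and 1 lower, with a median of -0.30. Over all measured genes the shares in the same order were 9.75% higher and 10.5% lower, 11.2% and 11.7%, and 2.92% and 3.92%. The lists below are to be read beside the same shares. Arg2, a mitochondrial arginase that uses the same substrate, was at 4.51, 52.9 and 347.1 FPKM in large, lower and upper. Arg2 relative to Nos2 was 31.3 in large intestine, 0.463 in lower and 29.2 in upper small intestine, so that of the 3 libraries the lower alone held more Nos2 than Arg2. Slc7a7, which exports cationic amino acids, was at 17.7, 94.6 and 131 FPKM, Gchfr, a regulator of cofactor synthesis, at 3.88, 12.8 and 26.2 FPKM and Ddah1, which clears inhibitory methylarginines, at 11.5, 13.6 and 0.496 FPKM. Ass1, which rebuilds arginine from citrulline and is named outside the rule after its values were seen, was listed at 0 in all 3 libraries.

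Interferon gamma response genes were highest in lower small intestine in 14 of 15 cases. The share of all genes highest there was not computed. In large against lower 0 of 15 were higher and 13 lower (median -1.70), in large against upper 1 of 14 was higher and 8 lower (median -1.22), and in lower against upper 5 of 15 were higher and 0 lower (median 0.67). Over all measured genes 10.5% were lower in large against lower and 11.7% in large against upper, and 2.92% were higher in lower against upper. Ido1, a tryptophan-degrading enzyme, was at 0.924, 36.0 and 12.4 FPKM in large, lower and upper, and Ciita, the regulator of MHC class II genes, at 0.769, 18.03 and 7.62 FPKM. Tap1, a peptide transporter, was at 11.3, 79.7 and 51.2 FPKM.

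Genes inducible by microbes or by IL-17 and IL-22 were divided. In large against lower 4 of 14 were higher and 6 lower (median -0.08), in large against upper 5 of 14 were higher and 6 lower (median -0.48), and in lower against upper 7 of 14 were higher and 1 lower (median 1.05). Over all measured genes the shares in the same order were 9.75% higher and 10.5% lower, 11.2% and 11.7%, and 2.92% and 3.92%. Reg3g, an antibacterial lectin, was at 114, 12929 and 3945 FPKM in large, lower and upper, and Ubd, a ubiquitin-like protein, at 2.24, 139.7 and 26.7 FPKM, so both were highest where Duox2 was. Saa1, at 1328, 337 and 0.944 FPKM, was instead highest in large intestine, as was Fut2, a fucosyltransferase, at 60.4, 6.98 and 0.502 FPKM.

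Receptors and signalling genes upstream of Duox2, Duoxa2 and Nos2 were mostly within the rule of size, as were most genes. Of the measured ones, 1 of 18 was higher and 2 lower in large against lower (median -0.14), 1 of 18 higher and 1 lower in large against upper (median -0.07) and 0 of 17 either way in lower against upper (median 0.12). The shares over all genes in large against lower were 9.75% higher and 10.5% lower, so the count of lower ones was near the background. Il22ra1, a subunit of the IL-22 receptor, was at 9.90, 22.5 and 18.3 FPKM in large, lower and upper, Tnfrsf1a, a TNF receptor, at 23.7, 52.4 and 53.6 FPKM and the IL-1 receptor gene Il1r1 at 5.80, 0.093 and 0.083 FPKM.

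**Figure D5:**
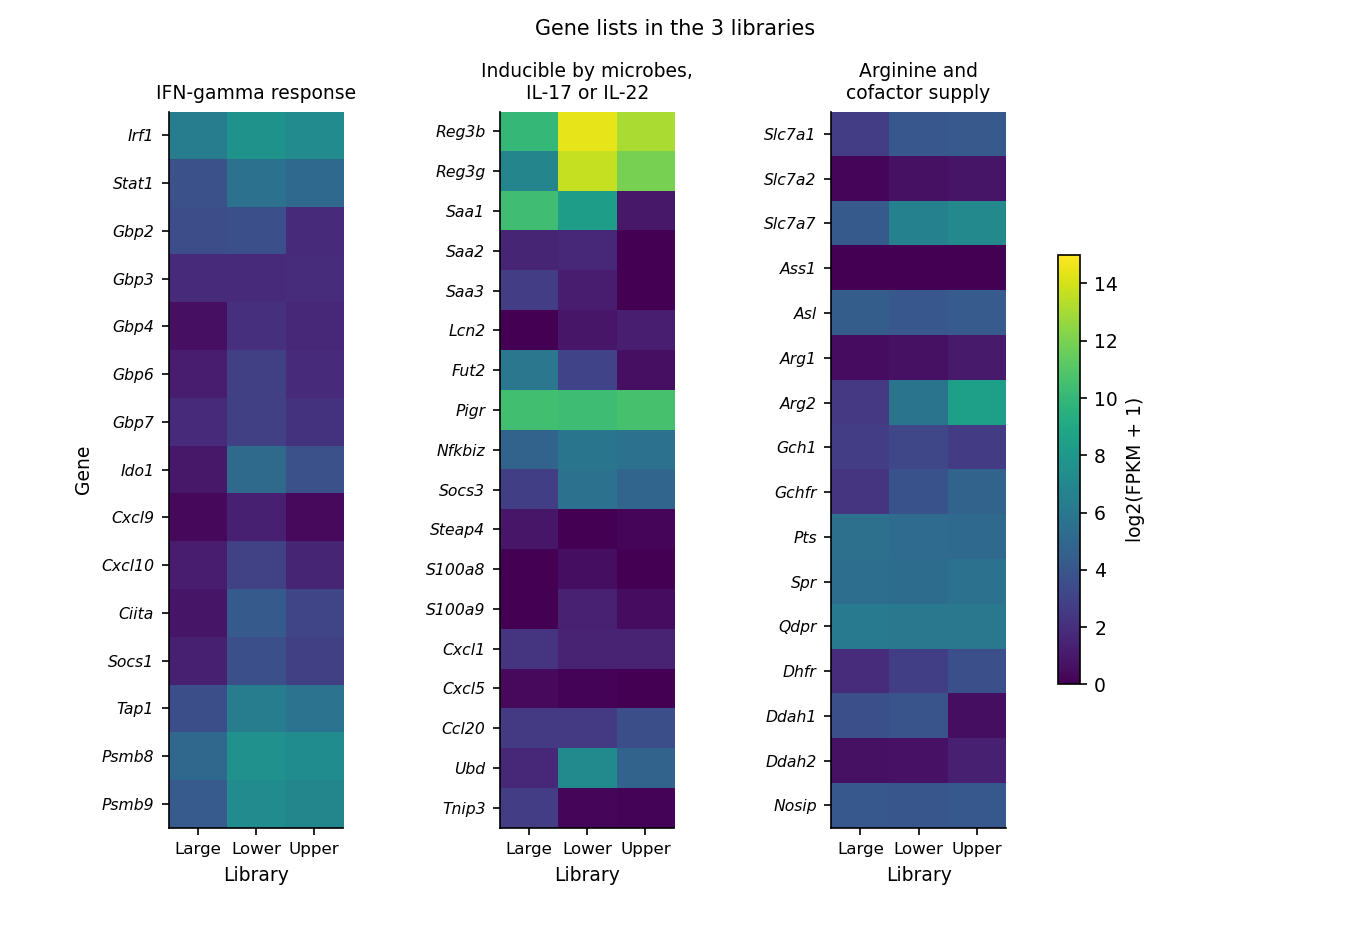
Levels as log2(FPKM + 1) (colour) of every gene in 3 of the lists (rows) in the 3 libraries (columns, large, lower and upper). Interferon gamma response genes are highest in lower small intestine in 14 of 15 rows, whereas Saa1 and Fut2 are highest in large intestine and Arg2 in upper small intestine. The share of all genes highest in each library was not computed.

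Enzymes that meet the oxidase products were measured alongside. Of 15 measured genes that remove superoxide and hydrogen peroxide, 1 was higher and 2 lower in large against lower (median -0.15), 1 higher and 4 lower in large against upper (median -0.45) and 0 higher and 2 lower in lower against upper (median -0.25). Prdx6, a peroxiredoxin, was at 954 FPKM in large intestine, 103.5 FPKM in lower and 111 FPKM in upper small intestine, and Cat, encoding catalase, at 46.4, 43.7 and 139 FPKM in the same order. Of 5 haem peroxidases, 2 were measured against either small intestinal library, 1 higher and 1 lower in large intestine each time (medians 1.05 and 1.08), and 1 was measured and within the rule in lower against upper. Lpo, encoding lactoperoxidase, an enzyme that uses hydrogen peroxide, had 10.1 FPKM in large intestine, and both other libraries listed it at 0, and Pxdn was at 0.136, 1.96 and 1.84 FPKM.

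Phagocytes also express Nos2, Cyba and the phagocyte oxidase. Of 7 genes for the phagocyte oxidase and Rac, 0 were higher and 2 lower in large against lower (median -0.90), 1 of 6 higher and 2 lower in large against upper (median -0.30) and 1 of 7 higher and 0 lower in lower against upper (median 0.23). Cybb was at 0.12 FPKM in large intestine, 1.17 FPKM in lower and 0.939 FPKM in upper small intestine, and Ncf1, a phagocyte organizer, at 0.39, 4.75 and 6.79 FPKM. Rac1, which serves Nox1 as well, was at 178, 182 and 154 FPKM, and is named outside the rule. Of 9 macrophage and monocyte markers, 8 were highest in lower small intestine, as was Nos2. This was not particular to them. Highest there too were 5 of 6 B and plasma cell markers, but 2 of 6 T cell markers. The same held for 8 of 8 fibroblast and smooth muscle markers, but only 1 of these, Dcn, reached 1 FPKM in any library. The share of all genes highest in lower small intestine was not computed. In large against lower 1 of 7 measured macrophage and monocyte markers was higher and 5 lower (median -1.48). In lower against upper 2 of 7 were higher and 0 lower (median 0.58). Over all measured genes 10.5% were lower in the former comparison and 2.92% higher in the latter. Itgam, an integrin of myeloid cells, was at 0.853, 11.8 and 3.56 FPKM in large, lower and upper. The complement genes C1qa, at 0.749, 4.42 and 1.87 FPKM, C1qb, at 0.383, 2.85 and 1.76 FPKM, and C1qc, at 0.258, 3.68 and 0.89 FPKM, had the same order, lower, upper, large. Of the defining genes named outside the rule, Adgre1 was at 0.036, 0.664 and 0.578 FPKM and Csf1r at 0.119, 1.47 and 0.65 FPKM. The macrophage and monocyte markers summed to 18.8 FPKM in large intestine, 33.03 FPKM in lower and 16.8 FPKM in upper small intestine. Of this, Cd14, also named outside the rule, made up 15.7 FPKM in large intestine. Without Cd14 the sums were 3.12, 26.96 and 11.2 FPKM. Neutrophil markers summed to 0.667, 9.49 and 9.28 FPKM over 7 genes, mostly as Retnlg, a secreted protein of granulocytes, which was listed at 0 in large intestine and was at 6.30 FPKM in lower and 7.84 FPKM in upper small intestine. S100a9, a calcium-binding protein, was listed at 0 in large intestine and was at 1.61 FPKM in lower and 0.399 FPKM in upper small intestine, and Mpo and Elane, named outside the rule, were listed at 0 throughout. The part of phagocytes in the levels of Nos2 and the other members was not tested.

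Markers of other cell types also differed between the libraries. The 6 T cell markers, of which all measured ones were lower in large intestine against either small intestinal library, summed to 5.63, 69.6 and 78.3 FPKM in large, lower and upper, and 6 B and plasma cell markers to 0.097, 30.7 and 30.1 FPKM. Without Jchain, the joining chain of antibodies, the B and plasma cell sums were 0.097, 8.26 and 2.01 FPKM, and 3 of 5 measured B and plasma cell markers were higher and 0 lower in lower against upper (median 1.06). Fibroblast and smooth muscle markers summed to 2.31, 5.23 and 3.16 FPKM and endothelial markers to 1.75, 1.66 and 1.19 FPKM. Of 6 goblet cell markers, 4 were highest in large intestine, the summed level was 5062, 4699 and 3290 FPKM, and Muc2 was at 1128, 329.6 and 150.8 FPKM. Of 5 crypt markers, 4 were highest in lower small intestine, with sums of 62.4, 549 and 694 FPKM of which Olfm4 made up 0.305, 396 and 579 FPKM, and without Olfm4 the sums were 62.1, 152.8 and 114.3 FPKM. Surface or villus tip markers were highest in each region in 2 of 6 cases, with sums of 1159, 1977 and 3768 FPKM, and of 1157, 1472 and 971 FPKM without Apoa4. The genes left out of these sums were chosen after their values were seen. Counts of markers highest in a library have no share over all genes beside them, since it was not computed. The part of these other cell types in the levels of the members was not tested.

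The genes of most similar pattern were taken as those with the smallest Euclidean distance over the 3 libraries between centred log2(FPKM + 1) values, among 7331 genes at 10 FPKM or more in any library. For Duoxa2 the closest was Slc34a2, a phosphate transporter, at a distance of 0.255, with 2.28 FPKM in large intestine, 58.5 FPKM in lower and 4.52 FPKM in upper small intestine. Next came Ndufs5, Suox, a sulfite oxidase, and Fam151a, and Duox2 ranked 5. Ndufs5, a subunit of the respiratory chain, was at 0.005, 12.6 and 0.005 FPKM in large, lower and upper, and a gene so widely used at so low a level can be a failed estimate. For Duox2 the closest were Dfna5, the gasdermin E gene, at a distance of 0.536 with 7.59, 37.6 and 5.80 FPKM, then Hspa12a, Lpcat4 and Ndufs5, and Duoxa2 ranked 16. For Nos2 they were Gm10104 at a distance of 0.405, Plb1, a brush-border phospholipase, with 0.391, 163 and 8.89 FPKM, Ubd and Gm15299. Duox2 ranked 136 for Nos2, whose level in large intestine was relatively much below that of Duox2.

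For Nox1 the closest was Agr2, a disulfide isomerase of secretory cells, at a distance of 0.0296 with 1660.4, 1082 and 494 FPKM, followed by Cacnb3, Syk and Rtn4. For Noxo1 they were Surf6 at a distance of 0.0143 with 12.8, 9.12 and 5.95 FPKM, 1110038B12Rik, Krt19 and B4galt4. Krt19, a keratin of simple epithelia, was at 2437, 1819 and 1200 FPKM. Many genes share so shallow a slope over 3 libraries, and the distance is a description.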

How the data were processed

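Each deposited file holds a value per gene for 1 library, read here as FPKM computed by the authors. This unit is an inference, since per the file headers each column has a library name and no unit, and Cufflinks 2.2.1 is the only quantifier in the submitters' processing notes. The genome build there is mm10, and SAMtools 0.1.19, Bowtie2 2.2.3 and TopHat2 2.0.13 are listed without roles. Annotation and filters were not stated. Coordinates and lengths came from GENCODE M21 (GRCm38), in which 23310 of the gene names were found, and windows before starts from RefSeq, for 9 of 10 members. Sums of FPKM were 521651, 646262 and 693218 for large, lower and upper.

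Differences used a pseudocount of 1 FPKM. Reads were implied from the spacing of low values, using genes whose single transcript had 1500 nt or more, where 71.1%, 74.2% and 73.0% of 395, 395 and 400 genes lay within 0.15 read of a whole number, too few for a test on counts. Each step was fitted to the same values. For the members the shortest coding transcript of the basic set was used. The procedure was also run on simulated counts with a known step and 1 transcript length per gene. These were simpler than the real values, so the run does not check the reads implied for these libraries. Analyses used Python 3.11.15, pandas 2.3.3, numpy 2.4.6 and scipy 1.17.1. No p-value was computed.

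The members and lists were chosen with earlier results of these data known. Genes named were all members, up to 4 measured genes per list with the largest absolute difference, and 4 genes of like pattern for each of Duox2, Duoxa2, Nox1, Noxo1 and Nos2, leaving out 1310 short RNA genes. Alternatives were other pseudocounts, filters, scalings and sizes of the rule.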

Additional observations from a re-analysis of the deposited data

How the results depend on the processing

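Of 54 recomputed counts of members called higher or lower, 49 stayed within 1.5 times their value and 5 did not. In large against lower small intestine the count of members called higher was 0, and became 1 (Noxa1) when libraries were rescaled to the same sum of FPKM, 1 when that sum left out short RNA genes, and 2 with a 1.5-fold rule. In large against upper small intestine the count called higher was 2 and became 0 with a rule of 2 log2 units, and the count called lower was 1 and became 2 with a 1.5-fold rule. None of 135 recomputed log2 differences of single members, under other pseudocounts and scalings, changed sign. A change of pseudocount never alters the sign of such a difference, so only the rescaled values test it. Rescaling to the same sum moved Cyba in large against lower from -0.35 to -0.05 and in large against upper from 0.06 to 0.46. It moved Duox2 in large against upper from 0.03 to 0.41, so the near equality of that pair depends on the scaling. Rescaling by the median ratio was a weak test, and moved Duox2 in large against upper only from 0.03 to 0.02. The 135 include differences of Duox1 and Duoxa1, which stayed under 1 FPKM. No paired analysis was possible because each region has 1 library, and for the same reason leaving out a library within a region was not run. Depth limits Duox1 and Duoxa1, each under 10 implied reads in every library, and Nos2 in large intestine.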
